A study of Caenorhabditis elegans with 4 samples.

Results

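Runs of overlapping peaks were described in the binding profile of LIN-39, a Hox protein of Caenorhabditis elegans, measured by chromatin immunoprecipitation with sequencing (ChIP-seq). Hox proteins are homeodomain transcription factors that give cells their identity along the head-to-tail axis. LIN-39 acts in the middle of the body, where it is needed for vulval precursor cells, for migrating neuroblasts and for neurons of the ventral nerve cord, and it can bind DNA together with Pbx-type cofactors such as CEH-20. A site-specific transcription factor usually gives a narrow ChIP-seq peak around its site, while clusters of sites or chromatin marks can give wider stretches of signal.

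The animals were hermaphrodites of strain OP18, kept at 20 °C and collected in the final larval stage (L4). Per the labels, they carried the allele unc-119(ed3) on chromosome III and the transgene wgIs18. This transgene was introduced by biolistic transformation, expresses the fusion lin-39::TY1::EGFP::3xFLAG and brings along unc-119(+), a working copy of that gene. The labels name no lesion in the animals' own lin-39. An anti-GFP antibody was used, so the profile is that of the tagged protein in whole animals of 1 strain. There were 2 ChIP libraries and 2 libraries of input DNA, all of this genotype and stage. The input libraries entered no comparison here. The sources used here do not say whether the replicates were grown separately.

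Each ChIP replicate has a deposited list of 30000 peaks, and 1 further list of 141 peaks belongs to the series as a whole (the series-level list). Positions are those of the WormBase WS220 build. All peaks of a list have the same width, 496 bp in replicate 1 and 490 bp in replicate 2. A peak's number is its name in the list, and number 1 is read here as the strongest. The deposited score is on a log10 scale, and 10 raised to minus the score reads as a false discovery estimate, so a score of 0 means as many background calls as peaks. The lists hold no read counts, so the depth behind them is unknown.

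The members were chosen by position. In each replicate list alone, peaks were sorted by start and joined when a start lay at or below the end of the previous peak, and runs of 3 or more joined peaks were kept. This gave 208 runs with 636 peaks in replicate 1 and 189 runs with 584 peaks in replicate 2, in all 397 runs with 1220 of the 60000 peaks. Runs held 2.12% of the peaks of replicate 1 and 1.95% of those of replicate 2. Outside the runs, replicate 1 had 4132 pairs of overlapping peaks and 21100 single peaks, and replicate 2 had 4032 pairs and 21352 single peaks. Positions chose the runs, so their number, length and spacing are a description with no test.

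The runs were short, and the name "broad" holds only relative to a single peak. Of the 208 runs of replicate 1, 197 had 3 peaks, 10 had 4 and 1 had 5. Of the 189 runs of replicate 2, 174 had 3 peaks, 13 had 4 and 2 had 5. No run had more than 5 peaks. The median span was 1124 bp in replicate 1, with a range of 900 to 1728 bp, and 1113 bp in replicate 2, with a range of 891 to 1787 bp. Together the runs covered 235 kb in replicate 1 and 213 kb in replicate 2, which is 0.234% and 0.213% of the chromosome spans. They lay apart from each other. The median gap between neighbouring runs on a chromosome was 288 kb in replicate 1 and 313 kb in replicate 2, and the smallest gap was 2408 bp and 2592 bp.

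The runs of 5 peaks held none of the 1000 strongest peaks. These make up 3.33% of each list, so 15 peaks are too few to read a result from this. The only run of 5 peaks in replicate 1 lay at II 4493242 to 4494969 and held, from left to right, peaks number 9443, 21311, 12170, 17456 and 2802. In replicate 2 a run of 5 lay at V 11367449 to 11369235, with numbers 9502, 5730, 16795, 8610 and 24848. The other lay at III 7063910 to 7065597, with numbers 4043, 19980, 26437, 1361 and 10429. All 15 peaks of these 3 runs had scores below 0, that is, more background calls than peaks at their rank, as did 71.9% of all peaks of replicate 1 and 94.2% of those of replicate 2. The longest runs of 4 peaks were at X 15487064 to 15488562 in replicate 1 (1499 bp, lowest number 6378) and at IV 14481390 to 14482957 in replicate 2 (1568 bp, lowest number 15931). The next in replicate 1 were IV 7819120 to 7820616, with no number below 19880, X 14402401 to 14403837, with numbers 2796 to 27851, and I 4684621 to 4686047, with numbers 5442 to 28365. In replicate 2 they were V 9732167 to 9733689, with numbers 16816 to 28677, and X 6845389 to 6846861, with numbers 20684 to 22754.

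**Figure D1:**
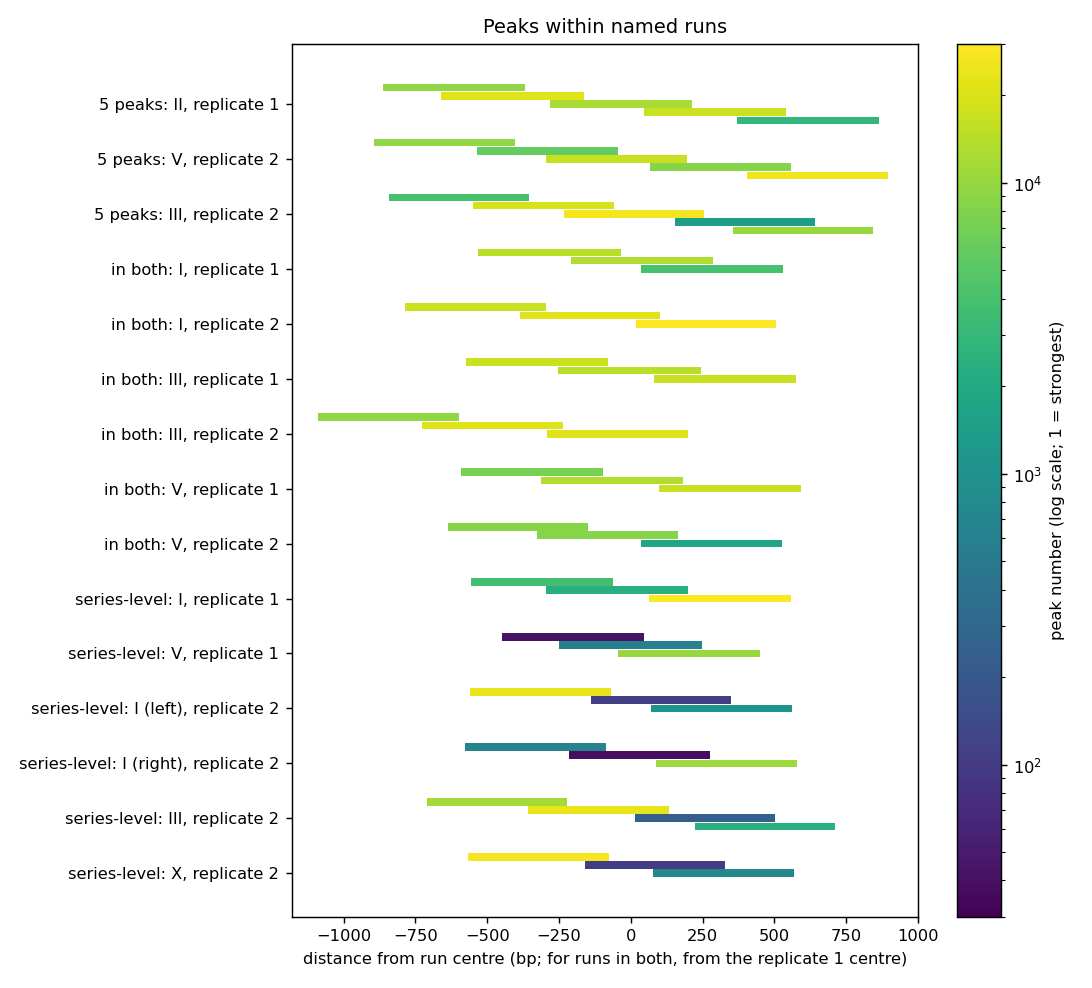
Each bar is 1 peak of a named run, drawn to scale by its distance in bp from the run's centre and stepped down from left to right, with colour giving the peak number on a log scale. The runs of 5 peaks and the runs found in both replicates hold peaks numbered above 1000, while 5 of the 6 runs that hold series-level peaks have a darker peak, numbered below 1000, beside weaker ones.

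Overlap rarely went beyond a second peak. After a peak that overlapped the one before it, the next peak overlapped again in 220 of 4558 cases (4.83%) in replicate 1 and in 206 of 4426 (4.65%) in replicate 2. After a peak that did not overlap the one before it, the next peak overlapped in 17.1% of cases in replicate 1 and 16.5% in replicate 2. In both lists a further overlap was thus less frequent than a first one.

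Successive peaks kept a minimum distance between their starts. No starts lay closer than 199 bp in either list. Within runs the median distance between successive starts was 307.5 bp in replicate 1 and 306 bp in replicate 2, against 244 bp and 239 bp in pairs. Distances under 250 bp made up 20.8% of those in runs against 53.7% of those in pairs in replicate 1, and 27.1% against 56.9% in replicate 2. Distances from 450 to under 600 bp, around the width of a peak, occurred only 106 times in replicate 1 and 131 times in replicate 2. Over 3 such bins of 50 bp this is far below the mean of 332 and 336 per 50 bp between 1 and 2 kb. The cut between overlapping and separate peaks thus fell where few neighbours lie. Just inside it, 4 runs of replicate 1 and 3 of replicate 2 had a link of under 50 bp in common, the smallest being 27 bp and 26 bp. Just outside, joining across gaps of up to 50 bp would have given 211 runs in replicate 1 and 193 in replicate 2.

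**Figure D2:**
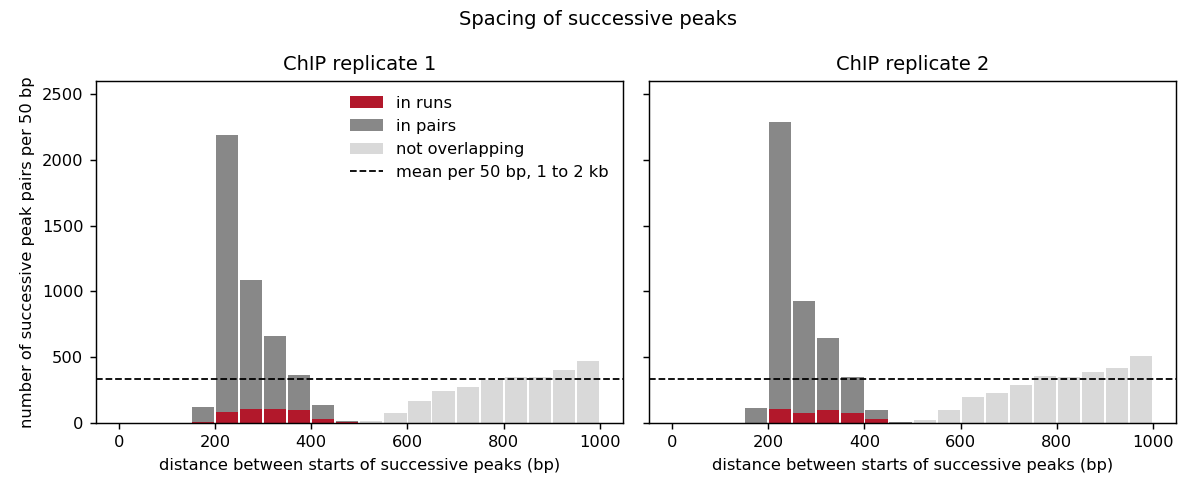
Bars count successive peaks on a chromosome by the distance between their starts, in bins of 50 bp, split into links in runs (red), in pairs (dark grey) and between peaks that do not overlap (light grey), with the dashed line at the mean per 50 bp between 1 and 2 kb. Pairs are concentrated between 200 and 250 bp, links in runs are spread over 200 to 400 bp, and few neighbours lie between 450 and 600 bp in either replicate.

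Peaks in runs ranked differently by peak number and by deposited score. By peak number their median lay further down the list than that of pairs and of single peaks. The median peak number was 16877.5 in runs, 13299 in pairs and 15545.5 for single peaks of replicate 1. In replicate 2 it was 16275 in runs, 13392 in pairs and 15546.5 for single peaks, against 15000.5 over each whole list. Ranked by the deposited score, which does not fall steadily with peak number, the order turned round. Among run peaks outside the strongest, the score tended to rise with the number. In replicate 2, run peaks number 2616, 10421 and 29957 had scores of -0.0648, -0.0266 and 0.00157. In replicate 1 the rise was uneven. Run peaks number 1555, 15360, 16967, 20713, 22923 and 27012 had scores of -0.0645, 0.0042, -0.0106, 0.0036, -0.0049 and 0.0100. The rank by score thus tended to reverse the rank by number, unevenly in replicate 1, and is no second measure of strength. The median rank by score was 12873 in runs, 16522.5 in pairs and 14480 for single peaks of replicate 1, and 13294.5, 16175.5 and 14607.5 in replicate 2. At the top of the lists by number, runs held a higher share of their peaks than single peaks did and a lower one than pairs. The 1000 strongest peaks included 19 in runs in replicate 1 (2.99% of run peaks), against 5.24% of pair peaks and 2.60% of single peaks. In replicate 2 they included 24 in runs (4.11% of run peaks), against 5.08% of pair peaks and 2.65% of single peaks. Peaks share runs and are not replicates, so these shares carry no test.

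The share of peaks that lay in pairs fell down the list, while the share in runs did not. Of numbers 1 to 100, 1 peak lay in a run in each replicate (1%, exact 95% interval 0.0253 to 5.45). It was 2.60% (1.39 to 4.41) for numbers 501 to 1000 of replicate 1 and 2% (0.963 to 3.65) for those of replicate 2. For numbers 2001 to 5000 it was 1.47% (1.07 to 1.96) in replicate 1 and 1.57% (1.15 to 2.08) in replicate 2. Replicate 2 had its highest share, 3.33% (1.61 to 6.04), at numbers 201 to 500, where replicate 1 had 1.33% (0.364 to 3.38). For numbers beyond 10000 and up to 20000 it was 2.34% (2.05 to 2.66) in replicate 1 and 1.83% (1.58 to 2.11) in replicate 2. For numbers 20001 to 30000 it was 2.37% (2.08 to 2.69) in replicate 1 and 2.24% (1.96 to 2.55) in replicate 2. In replicate 1 the intervals beyond number 10000 lie above that of numbers 2001 to 5000. The share in pairs was 45% for numbers 1 to 100 of replicate 1 and 23.8% for numbers 20001 to 30000, and in replicate 2 it was 41% and 23.6%. A false discovery estimate below 0.5 was reached by 1 run peak in replicate 1 and by 4 in replicate 2, which is 0.157% and 0.685% of run peaks, against 0.170% and 0.517% of the peaks outside runs. The intervals cover counting error only.

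**Figure D3:**
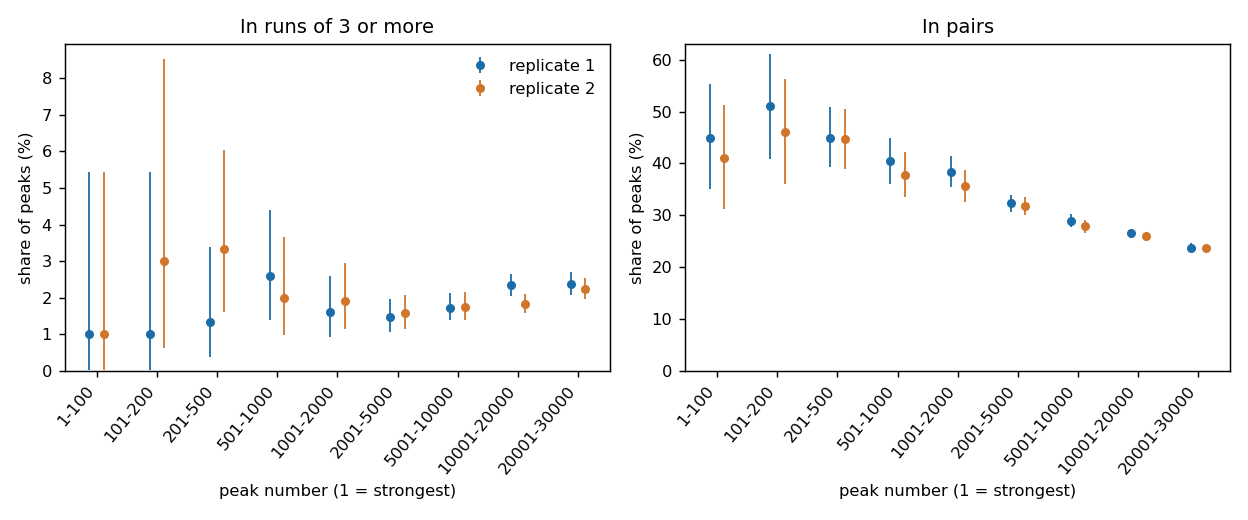
Share of peaks in runs of 3 or more (left) and in pairs (right) by range of peak number, in replicate 1 (blue) and replicate 2 (orange), with exact 95% binomial intervals. The share in runs lies between 1% and 3.33% in every range, while the share in pairs falls from above 40% to below 24%.

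Within a run the peaks differed widely in rank. The median difference between the highest and the lowest number of a run was 13049.5 in replicate 1 and 14597 in replicate 2. No run had all its peaks within the 1000 strongest, and 1 run, in replicate 2, had all within the 5000 strongest. The lowest number of a run was at or below 1000 in 16 runs of replicate 1 (7.69%) and 21 of replicate 2 (11.1%), against 9.78% and 9.67% of pairs, although a run has more peaks to draw from. It was beyond 10000 in 89 runs of replicate 1 and 71 of replicate 2.

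The runs with the strongest peaks mostly held 1 peak among the 1000 strongest. Of the 10 named here, 3 held at least 2 such peaks, and over all runs 3 in each replicate did. In replicate 1 the strongest was at V 13908419 to 13909318, with numbers 42, 585 and 10435 and scores of 0.428, -0.0596 and -0.0074. IV 10232410 to 10233593 followed, with numbers 127, 3629 and 18994, and then IV 5204027 to 5205107, with 20713, 285 and 7620. X 10837892 to 10839016 held numbers 21121, 372 and 2442, and I 5629639 to 5630762 held 21893, 401 and 22709. In replicate 2 the strongest was at I 7474694 to 7475847, with numbers 659, 38 and 10476, of which number 38 had a score of 1.03. X 10430024 to 10431156 held numbers 27123, 103 and 726, I 1700514 to 1701632 held 24079, 104 and 1057, and II 6822506 to 6823556 held 12015, 147 and 2779. The run of 4 at III 8416391 to 8417814 held 11621, 23199, 231 and 2432. In 8 of these 10 runs the strongest peak had weaker ones on both sides. Among all runs of exactly 3 peaks the lowest number was in the middle in only 42.6% in replicate 1 and 39.7% in replicate 2.

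The strongest peak of a run was not evenly placed. Of the 197 runs of exactly 3 peaks in replicate 1, the lowest number was at the left in 72 (36.5%), in the middle in 84 (42.6%) and at the right in 41 (20.8%). Of the 174 in replicate 2 it was at the left in 67 (38.5%), in the middle in 69 (39.7%) and at the right in 38 (21.8%). The right-hand peak was the weakest of the 3 in 38.1% of these runs in replicate 1 and in 43.7% in replicate 2. Left and right are those of the chromosome coordinates, which have no fixed relation to the direction of genes. The tilt to the left was concentrated at the closest neighbours. At starts under 220 bp apart the left peak had the lower number in 36 of 45 links in runs in replicate 1 (80%, exact 95% interval 65.4 to 90.4) and in 47 of 53 in replicate 2 (88.7%, 77 to 95.7). At 350 bp or more it had it in 44.4% (35.6 to 53.6) and 45% (35.6 to 54.8). Pairs gave 90.9% and 91.6% under 220 bp and 57.3% and 53.6% at 350 bp or more in replicates 1 and 2. The intervals of these last 2 shares were 52.2 to 62.3 and 48.1 to 59. At 250 to under 300 bp pairs still gave 61.8% and 63.8%. The split by distance was made after the values were seen.

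**Figure D4:**
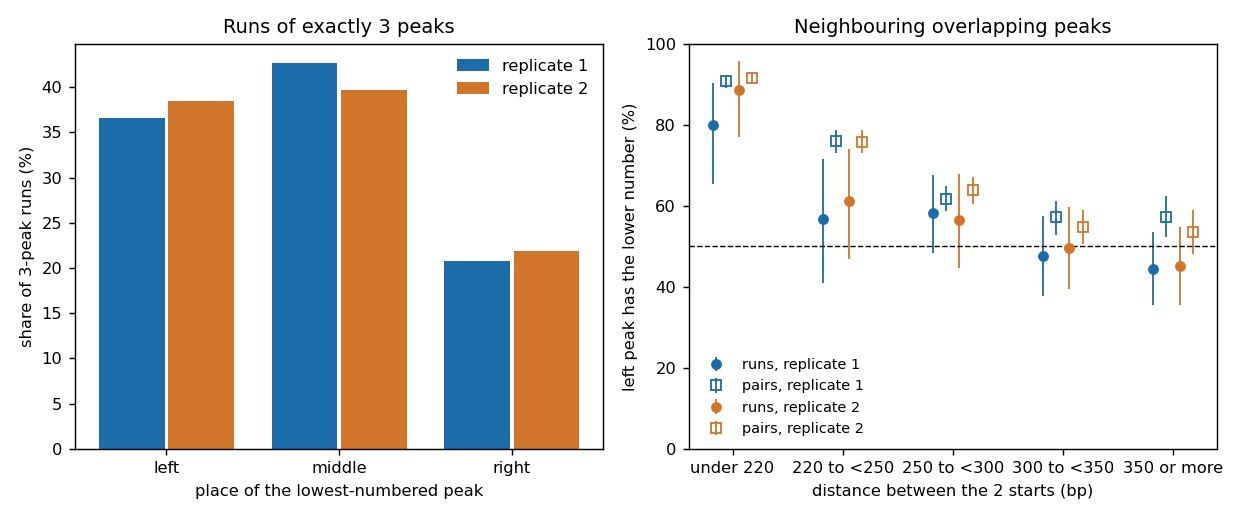
The left panel gives the share of 3-peak runs whose lowest-numbered peak is at the left, in the middle or at the right, and the right panel the share of neighbouring overlapping peaks in which the left one has the lower number, by the distance between their starts in bp, for runs (filled circles) and pairs (open squares) with exact 95% binomial intervals. In both replicates the left peak has the lower number in 80% or more of the links under 220 bp. At 350 bp or more the shares lie between 44.4% and 57.3%, and the dashed line marks 50%. The interval for pairs of replicate 1 there, 52.2 to 62.3, lies above that line.

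Few runs were found in both replicates. The comparison asks whether the same stretches were called in 2 lists that were joined independently. It gave 3 replicate 1 runs that overlapped a replicate 2 run by at least 1 bp, which is 1.44% of 208 runs (exact 95% interval 0.298 to 4.16) and 1.59% of the 189 runs of replicate 2. Of all peaks, 0.580% of those of replicate 1 overlapped a replicate 2 run and 0.703% of those of replicate 2 overlapped a replicate 1 run, but a peak is narrower than a run. When the replicate 2 runs were moved around each chromosome by every multiple of 10 kb, 1377 shifts in all, the mean count was 0.893 ± 0.956 (SD over shifts), with a range of 0 to 5. The count of 3 did not pass at 0.05 (two-sided permutation by shifts, p = 0.0718), and 98 shifts gave 3 or more. The outcome turned on the joining rule and the overlap asked for. It passed with at least 50% of the shorter run in common (p = 0.0289 by permutation) and with joining across gaps of up to 100 bp (2.09% of 239 runs, p = 0.0116), and with at least 100 bp in common asked of joined peaks none of 173 runs was shared, where shifted lists gave a mean of 0.524.

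The 3 shared runs had 3 peaks in each replicate and none of their peaks was among the 1000 strongest. Those make up 3.33% of each list, so none among so few peaks is no result. The pair on I lay at 7426543 to 7427604 in replicate 1 and 7426288 to 7427579 in replicate 2, with 1037 bp in common. Its numbers were 14617, 13151 and 3989 in replicate 1 and 17188, 21480 and 29223 in replicate 2. The pair on III lay at 344175 to 345326 in replicate 1 and 343661 to 344949 in replicate 2, with 775 bp in common and numbers of 14210 to 17270 and 9564 to 21643. The pair on V lay at 8212732 to 8213917 in replicate 1 and 8212687 to 8213850 in replicate 2, with 1119 bp in common. Its numbers were 7368, 13207 and 16800 in replicate 1 and 8482, 8602 and 1774 in replicate 2. No run of 4 or more peaks was shared with such a run of the other replicate. None of the 3 shared runs held a series-level peak.

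Runs met individual peaks of the other replicate more often than shifted ones. So did the peaks of the whole lists, at 45.3% against 26% in replicate 1 and 45.2% against 25.9% in replicate 2. Of the runs of replicate 1, 145 (69.7%) overlapped at least 1 replicate 2 peak, against 39.6% ± 3.40 (SD) when the replicate 2 peaks were shifted. They overlapped 1 such peak in 85 runs, 2 in 54 and 3 in 6. Of the runs of replicate 2, 121 (64%) overlapped at least 1 replicate 1 peak, against 40% ± 3.82. Measured per peak, so that widths are equal, 57.9% of the peaks in replicate 1 runs overlapped a replicate 2 peak, against 51.4% in pairs, 42.6% of single peaks and 45.3% of all peaks. In replicate 2 it was 48.1% in runs, against 52.2% in pairs, 42.4% of single peaks and 45.2% of all peaks. Run peaks thus stood above single peaks in both replicates but above pairs in replicate 1 only, and the difference was not tested. Peaks of a run or pair overlap each other, so 1 peak of the other replicate can count for more than 1 of them. Equal widths do not remove this.

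Close agreement in position was not higher in runs. A peak centre of the other replicate within 100 bp was found for 21.1% of the run peaks of replicate 1, against 20.8% in pairs, 22.3% of single peaks and 21.9% of all peaks. In replicate 2 it was found for 17.5% of run peaks, against 21.4% in pairs, 22.2% of single peaks and 21.9% of all peaks. Shifted lists gave 6.23% for run peaks of replicate 1 and 6.26% for those of replicate 2. Within runs of replicate 2 the lowest-numbered peak had a near centre in 22.2% of cases and the other peaks in 15.2%, while in replicate 1 these shares were 22.1% and 20.6%. By range of peak number the replicates differed. For numbers 1 to 1000 a near centre was found for 26.3% of 19 run peaks, against 41.4% of single peaks, in replicate 1 and for 45.8% of 24 run peaks, against 44% of single peaks, in replicate 2. For numbers beyond 1000 and up to 10000 it was 26% against 27.3% in replicate 1 and 28.1% against 28.3% in replicate 2. Among peaks numbered beyond 10000, which make up 471 of the 636 run peaks of replicate 1 and 407 of the 584 of replicate 2, the share with a near centre was 19.3% in runs against 19.5% of single peaks in replicate 1 and 11.8% against 18.8% in replicate 2.

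Runs were spread over all 6 chromosomes. X held 49 of the 208 runs of replicate 1 (23.6%, exact 95% interval 18 to 29.9), against 20.8% of all its peaks. It held 57 of the 189 runs of replicate 2 (30.2%, 23.7 to 37.2), against 20.4% of all its peaks. X was the chromosome with the most runs in both replicates, at 2.77 and 3.22 runs per Mb. Of the pairs, 22.8% in replicate 1 and 20.3% in replicate 2 lay on X. Per 1000 peaks X had 7.86 runs in replicate 1, close to 7.83 on I and 7.68 on V. In replicate 2 it had 9.31, against 6.97 on III, the next highest. V came next by count with 48 runs in replicate 1 (23.1%) and 38 in replicate 2 (20.1%), close to its 20.8% and 21% of all peaks. The other chromosomes differed between the replicates. IV held 17.8% of the runs of replicate 1 and 11.6% of those of replicate 2, against 16.9% and 17.8% of all peaks. III held 9.62% and 13.8%, against 12.3% and 12.4%. I held 16.3% and 12.2%, against 14.5% and 14.1%, and II held 9.62% and 12.2%, against 14.7% and 14.3%. The intervals for these chromosomes contain the share of all peaks except for II in replicate 1 (5.97 to 14.5) and IV in replicate 2 (7.44 to 17.1). On X the interval of replicate 2 excludes the share of all peaks and that of replicate 1 contains it. With the 15000 lowest-numbered peaks of each list alone, which leave 21 runs in replicate 1, the mean share on X over both replicates was 19.4% in place of 26.9%.

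On the autosomes a larger share of runs than of all peaks lay towards the chromosome centres. In C. elegans the arms recombine more and hold more repeats and fewer conserved genes than the centres. With each chromosome cut into 3 equal parts, 74 of the 159 autosomal runs of replicate 1 lay in the central part (46.5%, exact 95% interval 38.6 to 54.6), against 38% of all autosomal peaks. In replicate 2 it was 67 of 132 (50.8%, 41.9 to 59.6), against 38.3%. Autosomal pairs lay between, at 39.7% in replicate 1 and 41% in replicate 2, and single peaks were at 37.2% and 37%. The share in runs was above that of all peaks on each of the 5 autosomes in both replicates, from 40% on II to 55% on III in replicate 1 and from 43.5% on I to 56.5% on II in replicate 2. The side parts differed. The left part held 34% of the autosomal runs of replicate 1 and 22% of those of replicate 2, and the right part 19.5% and 27.3%, against 30.7% to 31.1% of all peaks. On X the replicates differed: the central part held 17 of 49 runs in replicate 1 (34.7%, 21.7 to 49.6), against 36.1% of all X peaks, and 32 of 57 in replicate 2 (56.1%, 42.4 to 69.3), against 35.5%.

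**Figure D5:**
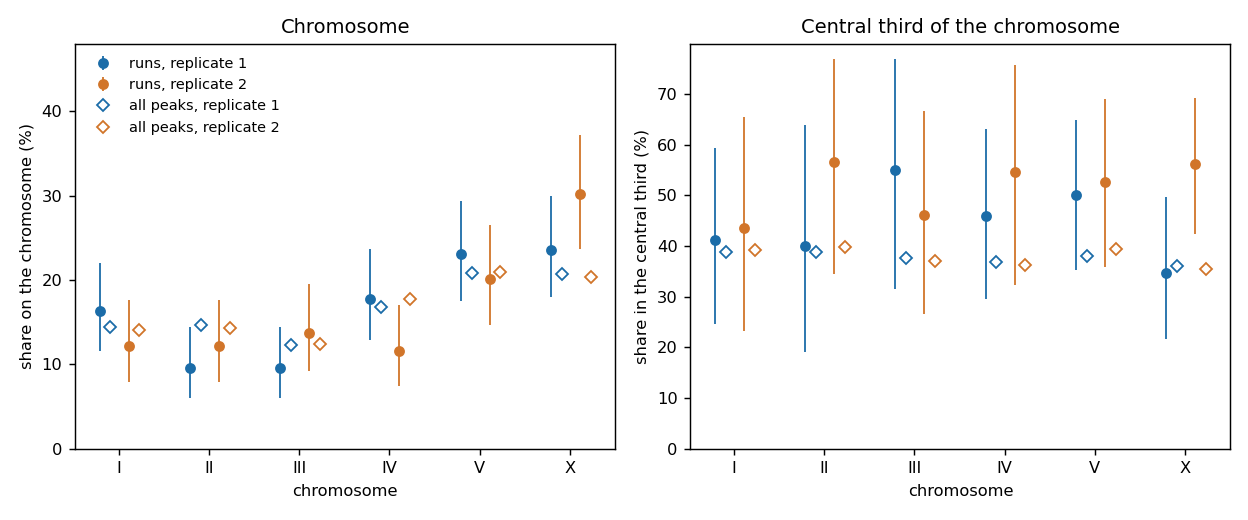
Filled circles give the share of runs on each chromosome (left) and the share of a chromosome's runs that lie in the central part of 3 equal parts (right), with exact 95% binomial intervals, and open diamonds the same shares over all peaks of the list. Runs lie above all peaks on X in the left panel and on every autosome in the right panel, in both replicates, with wide intervals, while the central share on X differs between the replicates.

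The series-level list held no run of its own. Its source column names the irreproducible discovery rate (IDR) procedure, as those of the replicate lists do. Its 141 peaks, each 504 bp wide, formed 3 overlapping pairs and no longer stretch. Runs of replicate 1 overlapped 2 of the 141 series-level peaks (1.42%, exact 95% interval 0.172 to 5.03), and 51 more (36.2%) lay in its pairs. Runs of replicate 2 overlapped 6 (4.26%, 1.58 to 9.03), and 58 more (41.1%) lay in its pairs. No series-level peak lay in a run of both replicates. Counted from the replicate peaks, 5 of 636 run peaks of replicate 1 overlapped a series-level peak (0.786%), against 1.19% in pairs, 0.412% of single peaks and 0.633% of all peaks. In replicate 2 it was 11 of 584 (1.88%), against 1.44% in pairs, 0.356% of single peaks and 0.677% of all peaks. Overlapping peaks can meet the same series-level peak. The 5 run peaks of replicate 1 met 2 series-level peaks and the 11 of replicate 2 met 6, so these shares count places more than once. The sources used here do not say how the series-level list was derived from the ChIP libraries, so the shares are given as a description and not as independent of the replicate lists.

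At the 6 runs that held series-level peaks, the other replicate had a pair or a single peak in place of the run. The run at III 8416391 to 8417814 in replicate 2 held 2 overlapping series-level peaks, number 24 with a score of 1.19 and number 95 with a score of -0.0310. Replicate 1 had a pair there, numbers 20 and 184, of which number 20 had a score of 0.746. The run at X 10430024 to 10431156 in replicate 2 also held 2, numbers 129 and 133, and replicate 1 had the single peak number 566 there. The run at I 7474694 to 7475847 in replicate 2 held series-level number 69, with numbers 34 and 2381 as a pair in replicate 1. The run at I 1700514 to 1701632 in replicate 2 held number 68, and replicate 1 had a pair of numbers 80 and 29518. In the other direction, the run at V 13908419 to 13909318 in replicate 1 held series-level number 40, and replicate 2 had the single peak number 98 with a score of 0.415. The run at I 14620760 to 14621876 in replicate 1 held number 98, and replicate 2 had a pair of numbers 83 and 6392 and a separate peak number 29969. Of these 6 runs, 5 were among the 5 of their list with the lowest peak numbers, and at all 6 the other replicate had a peak among its 1000 strongest. No such share is given here for series-level peaks outside runs, so these counts are not read as a trait of the 6 runs.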

How the data were processed

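ChIP-seq of tagged LIN-39 in L4 animals gave 2 replicate peak lists and 1 series-level list. Per the file headers and source column, the authors obtained peaks with SPP by way of IDR on WormBase WS220. The sources used here do not name the aligner, versions, settings or thresholds. The score deposited by the authors is on a log10 scale, a form worked out from the values. It reads as minus log10 of a false discovery estimate, and below the highest scores the background count recovered from it is a whole number for nearly all peaks. Peak number was used as rank because the score does not fall steadily down the replicate lists. Depth is unknown, and intervals cover counting error only.

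Peaks were joined in Python 3.11.15 with pandas 2.3.3 and NumPy 2.4.6. Intervals are exact Clopper-Pearson (SciPy 1.17.1). Overlap meant at least 1 bp unless stated. The shift comparison moved one list around each chromosome by multiples of 10 kb, with the highest peak end as chromosome length, and the smallest p it can give is 7.26e-04. Means for single peaks of shifted lists used 138 of these shifts. Joining and shifting were checked on lists with known runs. The same comparison was made for the alternatives and for 4 distances between runs that were added after the overlap was seen. No other test was made, since positions are not replicates.

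Named runs were the 5 with most peaks and the 5 with the lowest number in each list, those found in both replicates with 4 or more peaks (there were none, so all 3 shared runs are named, chosen after their values were seen) and those that overlap a series-level peak. The runs, their rule and the tests were chosen with earlier results of these lists known. No gene or sequence is given, because the gene table at hand is for another build and no genome was used here.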

Additional observations from a re-analysis of the deposited data

How the results depend on the processing

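Of 57 alternatives to 6 results, 24 stayed within a set limit or on the same side of the threshold. Another 24 moved a value beyond the limit, 5 brought the comparison of runs between replicates past the threshold and 4 left no shared run. Among the 5 were the overlap with any peak, which does not count shared runs, and the distance of 10 kb, which did not pass after adjustment. The limit was the spread between replicates, but for series-level peaks it was a set ratio to the main value. Leaving out a replicate could not pass the spread, which comes from the same 2 values, so those outcomes were fixed in advance. Values are means of both replicates unless stated. The share of peaks in runs, 2.03%, became 29.2% with 2 peaks enough and 0.178% with 4 required, 1.58% with at least 100 bp in common, 2.35% with gaps of up to 100 bp, 0.410% among the 15000 lowest numbers and 0.833% among the 15000 highest scores; fewer or more peaks to join change it by construction. Under the same alternatives the share of runs on X, 26.9%, was 21.8% with 2 peaks, 36.1% with 4, 19.4% among the 15000 lowest numbers and 38% among the 15000 highest scores. The central share of autosomal runs, 48.6%, was 40.7% with 2 peaks and 57.2% among the 15000 lowest numbers, and 65.7% for the central 50% of the chromosome. The median peak number, 16576, was 13580 with 2 peaks, 18602.5 with 4, 7831 among the 15000 lowest numbers and 22280.5 among the 15000 highest scores, where the filter itself sets which numbers remain. Ranked by score the median was 13084, on the other side of the list's median of 15000.5. Outside the strongest run peaks the score tended to rise with the number, unevenly in replicate 1, so this is no second measure of strength. Series-level peaks in runs, 4, were 58.5 with 2 peaks, 1 with 4, 2.5 with at least 100 bp in common, 1 among the 15000 lowest numbers and 0 among the 15000 highest scores, and leaving out a replicate gave 2 to 6. For the runs found in both, 1.44%, the share was 14.7% with 2 peaks (permutation by shifts, p = 7.26e-04, the smallest possible), 2.09% with gaps of up to 100 bp (p = 0.0116), 1.44% with at least 50% of the shorter run in common (p = 0.0289) and 69.7% against any peak (p = 0.00361, the smallest possible with 276 shifts). A run within 10 kb, added after seeing the data, gave 7.69% (p = 0.0239 by permutation). It was 0 with 4 peaks, with at least 100 bp in common and among the 15000 lowest numbers or highest scores, where shifted lists gave means of 0.00508, 0.524, 0.00654 and 0.0472 runs, so that a count of 0 gives no direction. The cause of the other changes was not tested. No paired analysis was possible because no comparison sets ChIP against input. Unknown depth limits every comparison of the replicates.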

Other observations

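Pairs of overlapping peaks, which are outside the runs, showed the left-hand tilt in every chromosome: the left peak had the lower number in 3023 of 4132 pairs of replicate 1 (73.2%, exact 95% interval 71.8 to 74.5) and in 2984 of 4032 of replicate 2 (74%, 72.6 to 75.4), with 72.1% to 74.8% by chromosome in both. Among links in runs the share was 53.7% (48.9 to 58.5) in replicate 1 and 56.5% (51.4 to 61.4) in replicate 2. Neighbours that did not overlap, with starts from 500 to under 2000 bp apart, gave 47% (46 to 48) and 47.4% (46.4 to 48.4). These shares were looked at after the runs of 3 had been described, and their cause was not tested.

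The surroundings of runs, and to a lesser degree those of pairs, held slightly more peaks of the other replicate than those of single peaks. Between 1 and 10 kb from the centre there were on average 6.11 ± 2.75 replicate 2 peaks around run peaks of replicate 1 (SD over 636 peaks), against 5.71 ± 2.61 around single peaks. Around run peaks of replicate 2 there were 6.18 ± 2.51 replicate 1 peaks, against 5.72 ± 2.53 around single peaks. Around peaks in pairs there were 5.99 in replicate 1 and 5.95 in replicate 2. The differences are small beside the spread between peaks. Peaks of a run share their surroundings, which are thus counted more than once. A replicate 2 run lay within 1 kb of 4 replicate 1 runs, against 1.73 ± 1.35 for shifted lists (SD; p = 0.101 and adjusted p = 0.136, both two-sided and by permutation). It lay within 5 kb of 6, against 4.83 ± 2.26 (p = 0.647, adjusted p = 0.647 by permutation), and within 10 kb of 16 (7.69%), against 8.68 ± 3.01 (p = 0.0239, adjusted p = 0.0958 by permutation). It lay within 50 kb of 46, against 36.3 ± 5.70 (p = 0.102, adjusted p = 0.136 by permutation). Adjustment is by Benjamini-Hochberg over these 4 distances, which were added after the overlap was seen, and none passed 0.05 after it.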
